A study of Mus musculus with 8 samples.

Results

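The genes of 9 peptide hormones of islet and gut were followed in samples labelled dorsal pancreatic epithelia, from wild-type and Sox9 mutant mouse embryos at e12.5. They are Gcg, Ins1, Ins2, Iapp, Ppy, Pyy, Ghrl, Sst and Gast, taken as every non-control probe that carries one of these names on the array. This gave 13 probes of the 41174 on the array, and all 13 were among the 27386 probes kept as above background. The mutant embryos were Sox9fl/fl; Pdx1-Cre, in which a Pdx1-driven Cre deletes Sox9 in the early pancreas, and the wild-type embryos were Sox9fl/fl littermates without Cre. The floxed line was of mixed FVB/N and C57Bl/6J background and the Cre line was C57Bl/6J. Since Cre was carried by mutants alone, the loss of Sox9 and the presence of Cre cannot be told apart. Each of the 4 wild-type and 4 mutant samples was RNA pooled from the microdissected dorsal pancreata of 3 embryos, of which 250 ng was labelled for a single-colour Agilent array. The series text gives a smaller number of biological replicates per genotype than these 4 arrays, so p-values measure the spread between these samples, which may in part be technical.

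Islet hormones are made as precursor peptides by endocrine cells that arise from the pancreatic epithelium after a short pulse of the transcription factor Neurog3. Alpha cells make glucagon (Gcg), beta cells make the insulins (Ins1, Ins2) and amylin (Iapp), PP cells make pancreatic polypeptide (Ppy), epsilon cells make ghrelin (Ghrl) and delta cells make somatostatin (Sst). Peptide YY (Pyy), a relative of pancreatic polypeptide, is also found in early islet cells, and gastrin (Gast), best known from the stomach, is made in the fetal pancreas as well. In the mouse, glucagon cells are among the earliest endocrine cells, and most beta cells form later than this stage.

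The 60-base probes of the genes that fell, other than the brighter Pyy probe, are shown because near-identical genes and repeated probes bear on the values. Capitals mark the 17-base run that the Ins1 probe shares with one of the Ins2 probes. Positions are on mouse assembly mm8, and which exon each probe lies in was not looked up.
Ins1 (chr19:52318117-52318176, plus strand): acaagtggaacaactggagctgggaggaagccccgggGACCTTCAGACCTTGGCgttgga
Ins2 brighter probe (chr7:142488160-142488219, minus strand): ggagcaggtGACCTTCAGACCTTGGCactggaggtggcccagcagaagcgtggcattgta
Ins2 dimmer probe (chr7:142488140-142488199, minus strand): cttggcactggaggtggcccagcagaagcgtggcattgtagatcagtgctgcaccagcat
Ppy (chr11:101916357-101916653, minus strand): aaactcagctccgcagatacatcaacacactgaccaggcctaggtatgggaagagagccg
Pyy dimmer probe (chr11:101923087-101923146, minus strand): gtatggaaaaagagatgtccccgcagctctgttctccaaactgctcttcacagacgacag
Gast (chr11:100152582-100152641, plus strand): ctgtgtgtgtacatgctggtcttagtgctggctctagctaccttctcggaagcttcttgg

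The Ins1 probe and the brighter Ins2 probe matched at 25 of 32 aligned bases. Ins1 and the dimmer Ins2 probe matched at 19 of 51, with a longest shared run of 7 bases. Probes were compared with probes only, and these may lie at different places of the 2 genes. Whether either Ins2 probe also binds Ins1 transcripts, or the Ins1 probe those of Ins2, was not tested. The 2 Ins2 probes overlap by 40 bases and so measure nearly the same stretch. The listed position of the Ppy probe covers 297 bases, more than the probe's own 60. Ppy and Pyy are neighbours on chromosome 11, and Ins2 lies between Igf2 and Th on chromosome 7, in the RefSeq gene order. No run of 15 or more bases was shared between the probes of Ppy, Gast or the dimmer Pyy probe and any probe of another gene. The brighter Pyy probe shares 16 bases on the same strand with a probe named NAP112061-1 and the brighter Ghrl probe shares 15 with a probe of 2900005J15Rik.

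Transcripts of 5 of the 9 hormone genes fell in the mutant, and those of Gcg, Iapp, Ghrl and Sst did not pass the test. Of the 13 probes, 12 had a lower mean in the mutant and 6 passed an adjusted p of 0.05 in limma, all 6 lower, where 2.88% of all kept probes were called lower. These 6 probes belong to Gast, Ppy, Pyy, Ins1 and Ins2, the last by its dimmer probe alone. For 10 of the 13 probes every mutant array lay below every wild-type array, which held for 7.36% of all kept probes. The median log2 difference of the 13 probes was -0.81, beside -0.0018 for all kept probes. In bulk samples, fewer cells of a type and less RNA per cell cannot be told apart.

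**Figure D1:**
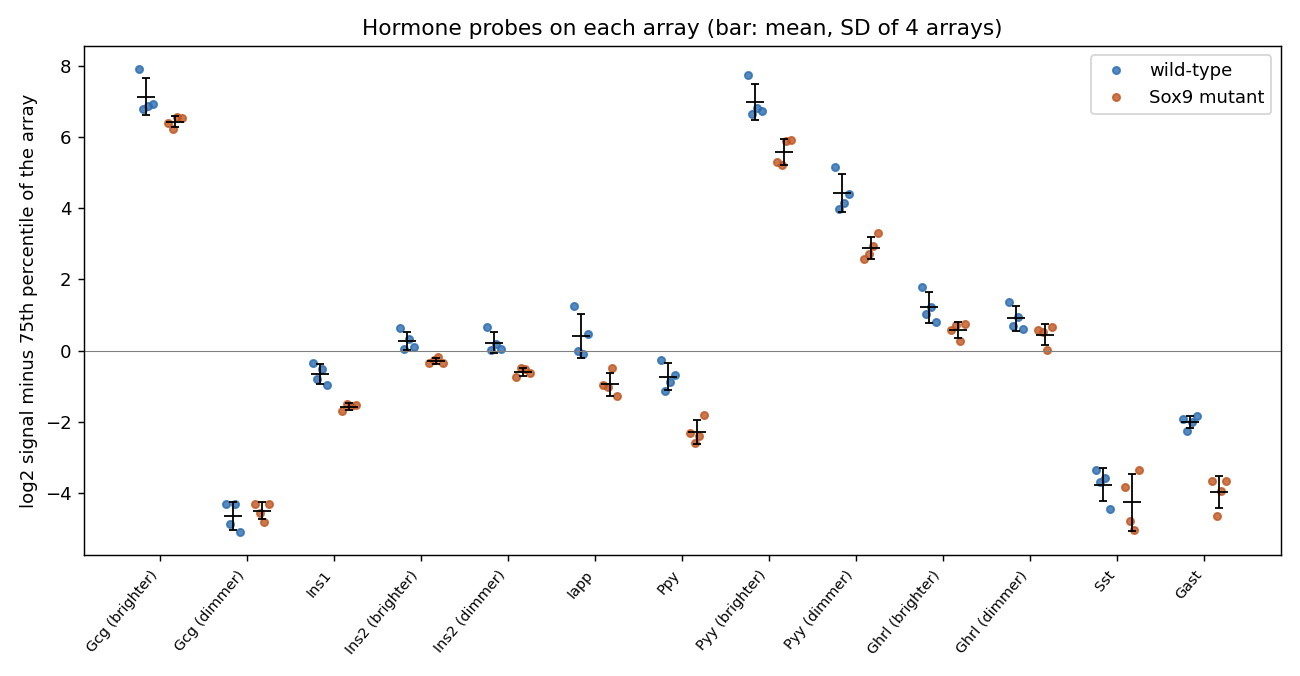
Log2 signal of the 13 hormone probes on each array, relative to the array's 75th percentile, for 4 wild-type (blue) and 4 mutant (orange) arrays; bars are the mean and SD. For 10 probes all mutant points lie under all wild-type points, and the exceptions are the dimmer Gcg and Ghrl probes and Sst.

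Of the whole array, 1027 of 27386 probes passed the threshold, 239 of them higher in the mutant. Sox9 ranged from 1.82 to 3.01 in wild-type and from -1.79 to 0.77 in mutant arrays, a log2 difference of -2.70 (limma adjusted p = 0.0291, SE 0.515). Whether its probe lies in the deleted part was not looked up. The share of spots well above background ran from 59.4% to 77.7%, and the 75th percentile of the signal from 372 to 640. Both genotypes were present on each of 3 slides. Wild-type replicate 2 shared slide 1 with mutant replicate 3, wild-type replicate 3 shared slide 2 with mutant replicates 1 and 4, and mutant replicate 2 shared slide 3 with wild-type replicates 1 and 4. The mean log2 signal of 3 Y-linked genes was between -6.58 and -5.19 in wild-type replicates 1, 2 and 4, was -1.13 in wild-type replicate 3 and lay between -1.87 and -0.17 in the mutant arrays. Apart from wild-type replicate 3, the Y-linked level went with genotype. The sex of the pooled embryos and their genotype can therefore hardly be told apart in these samples. With no filter on dim probes 2 of the 13 hormone probes passed, those of Gast and Ppy. With the Y-linked level as a covariate, 3 probes of the whole array and 0 of the 13 hormone probes passed in limma, and 7 of the 13 had an unadjusted p under 0.05. Wild-type replicate 3, the wild-type array with a Y-linked level within the mutant range, lay above all 4 mutant arrays for 11 of the 13 hormone probes. For the 10 probes whose groups did not overlap, this holds of every wild-type array by definition. A single array cannot separate the Y-linked level from genotype, and no conclusion is drawn from it. All values below are log2 signals relative to the array's 75th percentile, listed in the order of replicates 1 to 4, and levels of different probes are not comparable.

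Among the beta cell hormones, Ins1 and the dimmer Ins2 probe fell in the mutant, while the brighter Ins2 probe and Iapp missed the threshold. Ins1, the insulin gene particular to mice and rats, gave -0.33, -0.80, -0.51 and -0.96 in the wild type and -1.71, -1.51, -1.55 and -1.53 in the mutant. The groups did not overlap, and the mutant arrays lay within a narrow band (SD 0.093) compared with the wild-type arrays (SD 0.28). Ins1 fell by 0.92 (SE 0.154, adjusted p = 0.0191 in limma, 1.89-fold lower), with a difference of -0.74, -1.10 and -0.86 within slides 1, 2 and 3. Without wild-type replicate 3 (adjusted p = 0.0552), mutant replicate 1 (0.0669) or mutant replicate 2 (0.0558) it no longer passed, with a difference between -0.94 and -0.87 in these fits.

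Ins2, the counterpart of the insulin gene of other mammals, was read by a probe spotted 10 times per array and by a single spot. The 10-spot probe, the dimmer of them, gave 0.65, 0.01, 0.18 and 0.05 in the wild type and -0.74, -0.49, -0.52 and -0.62 in the mutant. Every wild-type value was above 0 and every mutant value below it, and the spread between repeat spots of an array was small (SD 0.024 to 0.066). This probe fell by 0.81 (SE 0.161, adjusted p = 0.0338 in limma, 1.76-fold lower), with a difference of -0.53, -0.86 and -0.84 within slides 1, 2 and 3. With slide as a block it gave -0.76 and lost the call (adjusted p = 0.0575), and it did not pass without any 1 of wild-type replicates 3 and 4 and the 4 mutant replicates (adjusted p = 0.0622 to 0.103).

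The brighter Ins2 probe gave 0.62, 0.05, 0.31 and 0.10 in the wild type and -0.35, -0.28, -0.18 and -0.34 in the mutant. The groups were again apart, but the difference of -0.56 (SE 0.146, adjusted p = 0.0796 in limma) did not pass. This is the probe that shares 17 bases with the Ins1 probe, and the part of that overlap in either value was not tested. It passed in the authors' table (-0.50, adjusted p = 0.0461) and with array weights (-0.49, adjusted p = 0.0271).

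Iapp encodes amylin, which beta cells release together with insulin. Its probe (chr6:142260777-142260836) gave 1.26, -0.02, -0.09 and 0.46 in the wild type and -0.97, -1.03, -0.50 and -1.29 in the mutant. The groups did not overlap, yet the wild-type arrays spread widely (SD 0.62). The difference was -1.35 (SE 0.311, 95% interval -2.06 to -0.64, adjusted p = 0.0552 in limma), just short of the threshold. It ran from -0.48 within slide 1 and -1.04 within slide 2 to -1.88 within slide 3, which held wild-type replicates 1 and 4. It passed under 6 of 20 alternatives, among them the authors' table (-1.21, adjusted p = 0.0386), but never when 1 of the 8 arrays was dropped (adjusted p = 0.0655 to 0.147).

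The glucagon gene did not pass. The 10-spot Gcg probe (chr2:62275467-62275526, minus strand) gave 7.90, 6.79, 6.87 and 6.93 in the wild type and 6.40, 6.21, 6.56 and 6.54 in the mutant. Every mutant array was below every wild-type array, with wild-type replicate 1 well above the other wild-type arrays. The difference was -0.70 (SE 0.249, 95% interval -1.27 to -0.13, adjusted p = 0.188 in limma) and did not pass, nor did it under any of 20 alternatives (-0.81 to -0.37). Within slides 1 to 3 it was -0.23, -0.40 and -1.21, and the fit without wild-type replicate 1 gave -0.44. Repeat spots agreed closely (SD 0.016 to 0.039), so the spread lies between the arrays, and no spot of any member was saturated.

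A second probe named Gcg (chr2:62281577-62281636), taken from a cDNA clone, was above background on 3 wild-type and 3 mutant arrays with signals of 14.6 to 31.4. Its values were -4.31, -4.86, -4.30 and -5.10 in the wild type and -4.30, -4.55, -4.82 and -4.31 in the mutant. The groups overlapped, with a difference of 0.15 (95% interval -0.35 to 0.65, adjusted p = 0.865 in limma). It was the single hormone probe of 13 with a higher mutant mean, and its sign turned on leaving out wild-type replicate 4 (-0.0051). The other fits that dropped 1 array gave 0.07 to 0.26, and array weights gave 0.47.

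Both genes of the pancreatic polypeptide family fell. Ppy, the hormone of PP cells, gave -0.25, -1.15, -0.87 and -0.68 in the wild type and -2.31, -2.60, -2.41 and -1.80 in the mutant. The lowest wild-type array was above the highest mutant array, and Ppy fell by 1.54 (SE 0.233, adjusted p = 0.0139 in limma, 2.91-fold lower). Within slides 1, 2 and 3 the difference was -1.26, -1.19 and -2.14. Leaving out wild-type replicate 4 ended the call (-1.52, adjusted p = 0.0525), and Ppy passed on leaving out any other single array.

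Pyy, a peptide of gut endocrine cells and early islet cells, was read by a pair of probes at separate positions that gave like values. The brighter probe (chr11:101922766-101922825, minus strand) gave 7.73, 6.63, 6.82 and 6.71 in the wild type and 5.29, 5.21, 5.87 and 5.92 in the mutant. The dimmer probe gave 5.16, 3.96, 4.14 and 4.39 in the wild type and 2.58, 2.72, 2.93 and 3.31 in the mutant. With either probe wild-type replicate 1 was highest and no mutant array reached a wild-type one. The brighter probe fell by 1.40 (SE 0.284, adjusted p = 0.0361 in limma, 2.64-fold lower) and the dimmer by 1.53 (SE 0.277, adjusted p = 0.0247 in limma, 2.88-fold lower). Within slides 1, 2 and 3 the brighter gave -0.76, -1.21 and -2.01 and the dimmer gave -1.03, -1.19 and -2.06. The brighter probe kept the call on leaving out mutant replicate 4 alone (adjusted p = 0.0508 to 0.107 without any other array) and lost it with slide as a block (-1.38, adjusted p = 0.0711). The dimmer probe lost it without wild-type replicate 4 or mutant replicates 1, 2 or 3 (adjusted p = 0.0588 to 0.0794).

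Ghrl, which encodes ghrelin, the stomach hormone that epsilon cells also make, did not pass with either of its probes. The brighter probe, whose listed position covers 843 bases of chromosome 6 (113682031 to 113682873), gave 1.80, 1.01, 1.24 and 0.80 in the wild type and 0.57, 0.72, 0.28 and 0.75 in the mutant. The groups touch without overlapping, at 0.80 in wild-type replicate 4 and 0.75 in mutant replicate 4. The difference was -0.63 (SE 0.223, 95% interval -1.14 to -0.12, adjusted p = 0.182 in limma). The dimmer probe (2008 bases, from 113682884 to 113684891) gave 1.37, 0.70, 0.95 and 0.60 in the wild type and 0.59, 0.53, 0.02 and 0.67 in the mutant. Here mutant replicate 4 exceeded wild-type replicate 4, and the difference was -0.45 (95% interval -0.94 to 0.03, adjusted p = 0.339 in limma). It was -0.30 without wild-type replicate 1 and -0.18 with array weights.

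Sst, the hormone of delta cells, lay close to background. Its 10-spot probe (chr16:23805039-23805098) gave -3.34, -3.70, -3.57 and -4.44 in the wild type and -3.84, -4.78, -5.05 and -3.35 in the mutant, and was above background on 4 wild-type and 3 mutant arrays. The groups overlapped, and the repeat spots of an array varied by an SD of 0.088 to 0.663. The difference was -0.49 (SE 0.404, 95% interval -1.42 to 0.43, adjusted p = 0.679 in limma), an interval that holds both no change and a fall as large as that of the brighter Pyy probe. The value was -0.12 with normexp, -0.11 in the authors' table, -0.23 without mutant replicate 3, -0.32 without mutant replicate 2 and -0.79 without mutant replicate 4, and with array weights the sign turned (0.058).

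Gast, which encodes gastrin, showed the largest fall of the 13 probes in the deposited processed signal. It gave -1.91, -2.25, -1.997 and -1.85 in the wild type and -3.67, -4.63, -3.94 and -3.65 in the mutant. The wild-type arrays lay close together (SD 0.18), and no mutant array came within reach of them. Gast fell by 1.97 (SE 0.226, adjusted p = 0.0101 in limma, 3.93-fold lower), with -1.69, -1.67 and -2.75 within slides 1, 2 and 3, and still passed whichever of the 8 arrays was dropped (adjusted p = 0.00534 to 0.0438). The size depends on how background is treated, since its processed signals were only 98.9 to 178 in wild-type and 21.1 to 49.6 in mutant arrays. The difference was -1.02 in the authors' table and -0.96 with another background correction (normexp), so that under those settings it was not the largest.

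**Figure D2:**
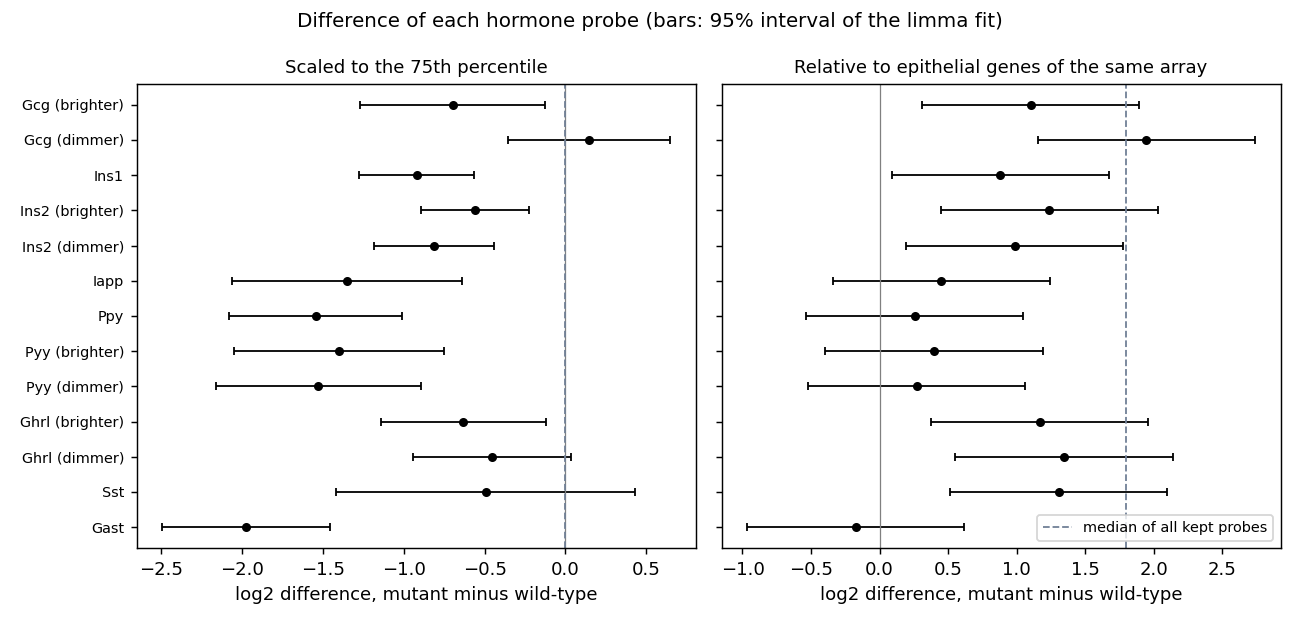
Log2 difference, mutant minus wild-type, of each hormone probe with its 95% interval, on the 75th-percentile scale (left) and after subtracting the mean of 24 epithelial genes of the same array (right); the dashed line is the median of all kept probes. On the left 12 of 13 points lie under 0, and on the right 12 lie above 0 and 12 lie under the median of all probes of 1.80.

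By exact permutation of the arrays between genotypes (70 ways, two-sided), p was 0.0286, the smallest value 4 against 4 arrays allow, for the 10 probes whose groups did not overlap. It gave 0.0571 for the dimmer Ghrl probe, 0.286 for Sst and 0.486 for the dimmer Gcg probe. Wild-type replicate 1 was the highest wild-type array for 11 of 13 probes on the scaled values and for 4 of 13 on the unscaled signal. That array had the lowest 75th percentile, 372, and the highest mean of epithelial genes, 1.36.

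Ratios of hormones within an array do not depend on the scaling between arrays, and they show whether members changed unequally. With the brightest probe of each of the 9 genes there are 36 pairs. For 12 of the 36 the ratio did not overlap between genotypes, with an exact permutation p of 0.0286 each, and none passed after Benjamini-Hochberg adjustment over the 36 (smallest adjusted p 0.0857). The share among pairs of other probes was not computed, so this count says nothing of hormones in particular. Of the 8 ratios to Gcg, those of Pyy, Ppy, Iapp and Gast were lower on every mutant array than on any wild-type array, which held for 1.13% of all other kept probes.

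The log2 ratio of Pyy to Gcg was -0.17, -0.16, -0.05 and -0.22 in the wild type and -1.11, -1.002, -0.69 and -0.62 in the mutant. The wild-type arrays agreed within an SD of 0.069, wild-type replicate 1 included, and all mutant arrays were lower. The ratio differed by -0.70 (SE 0.122, exact permutation p = 0.0286), by -0.54, -0.81 and -0.81 within slides 1, 2 and 3, by -0.78 to -0.62 on leaving out any 1 array, by -0.71 with normexp and by -0.69 in the authors' table. The ratio of Ppy to Gcg differed by -0.85 (SE 0.179), but by -0.47 with normexp, where the groups overlapped (exact permutation p = 0.0571). The ratio of Iapp to Gcg differed by -0.65 (SE 0.193), with overlap in the authors' table (-0.47, exact permutation p = 0.114). The ratio of Gast to Gcg differed by -1.28 (SE 0.292) and shrank to -0.26 with normexp and -0.28 in the authors' table, where the groups overlapped.

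The ratios of Ins1, Ins2, Ghrl and Sst to Gcg overlapped between genotypes on the main scale. They differed by -0.22 (SE 0.208) for Ins1, 0.14 (SE 0.175) for Ins2, 0.06 (SE 0.205) for Ghrl and 0.20 (SE 0.458) for Sst. For Ins1 the ratio was -0.03 with normexp and -0.01 in the authors' table, and ran from -0.38 to -0.09 on leaving out 1 array. For Sst the ratio to Gcg was higher in every mutant array with normexp (0.57) and in the authors' table (0.63). On the main scale, 42.7% of all kept probes were higher relative to Gcg on every mutant array than on any wild-type array. That share was not computed with normexp or for the authors' table, so the Sst ratio says nothing of Sst in particular. The Ins2 to Ins1 ratio was higher on all mutant arrays than on any wild-type array, by 0.36 (SE 0.069, exact permutation p = 0.0286), as was the case with normexp (0.23) and in the authors' table (0.25). The brightest Ins2 probe used there is the one that shares a run with the Ins1 probe. It differed by -0.56, beside -0.81 for the 10-spot Ins2 probe and -0.92 for Ins1. The ratio was not tested with the 10-spot probe, so the change in it rests on a single Ins2 probe.

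**Figure D3:**
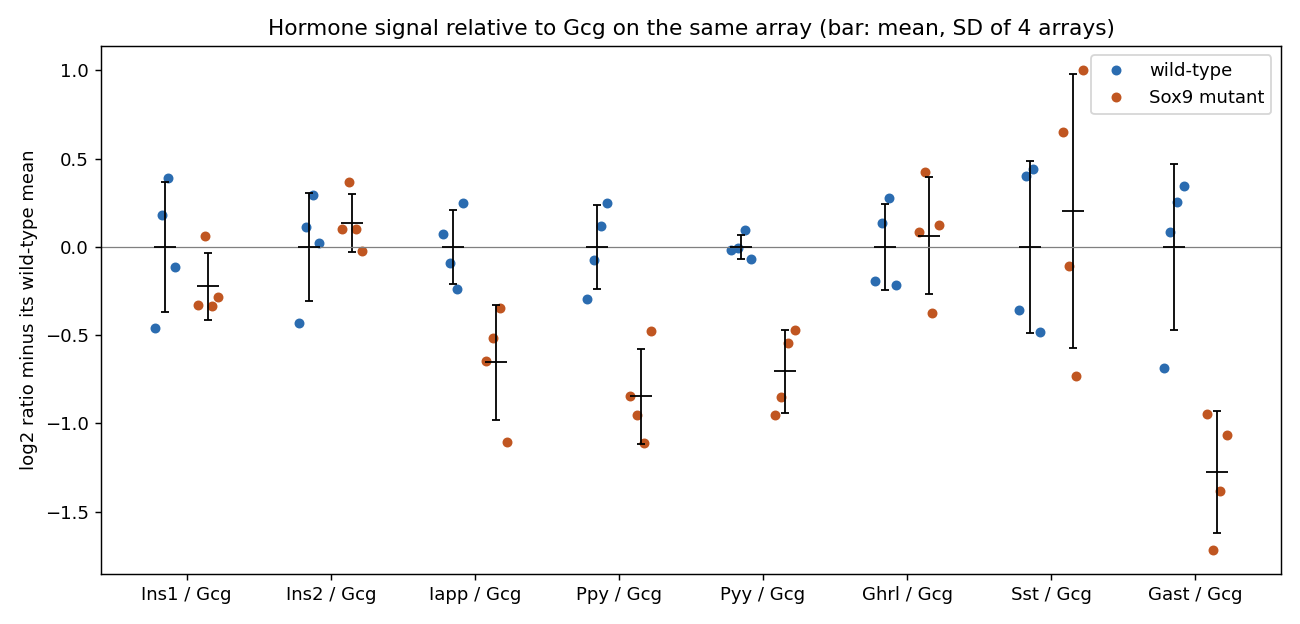
Log2 ratio of each hormone's brightest probe to the brighter Gcg probe of the same array, minus the wild-type mean of that ratio, for 4 wild-type (blue) and 4 mutant (orange) arrays; bars are the mean and SD. Iapp, Ppy, Pyy and Gast sit below all wild-type points on every mutant array, and Pyy has the narrowest wild-type spread (SD 0.069).

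Markers of epithelium moved with the hormones and further than most of them. Of 24 general epithelial genes, 19 fell and none rose, with a median of -2.13, and their summed level was 124 to 171 in wild-type and 49.4 to 72.3 in mutant arrays. Cldn3, a tight junction claudin, fell by 2.75 (adjusted p = 0.0107 in limma). Relative to the mean of these 24 genes on the same array, 12 of 13 hormone probes had a positive difference and 8 passed as higher. That share is below the 96.6% of all kept probes called higher on this scale, so it says nothing of hormones in particular. The median was 0.99 for the hormone probes and 1.80 for all kept probes. All probes share the spread of the 24-gene mean there. The limma fit gave each hormone probe the same SE, 0.404, whatever its own spread. The intervals and p-values on this scale therefore follow the size of the difference alone.

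The brighter Gcg probe gave 1.10 (adjusted p = 0.00685 in limma), though its groups overlapped (exact permutation p = 0.0571). The dimmer Gcg probe gave 1.95, Sst 1.31, the Ghrl probes 1.17 and 1.34, the Ins2 probes 1.24 and 0.99, and Ins1 0.88 (adjusted p = 0.0308 in limma), and all 8 passed as higher relative to epithelium. Ins1 no longer passed without wild-type replicate 2 or 4 or mutant replicate 2 or 3 (adjusted p = 0.0529 to 0.0889), and Iapp passed without mutant replicate 4 (0.79, adjusted p = 0.0291). Iapp (0.45), Pyy (0.40 and 0.27), Ppy (0.26) and Gast (-0.18) did not pass, with the 95% interval of Gast running from -0.97 to 0.62. The sign of Gast turned with normexp (0.50) and in the authors' table (0.48), and that of the dimmer Pyy probe turned to -0.059 and -0.036. The part of a smaller epithelial share in the hormone differences was not tested.

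Transcription factors that set up endocrine cells fell in part. Of 22 measured endocrine transcription factors, 11 fell and none rose, with a median of -1.36. Neurog3, the factor that commits cells to the endocrine fate, fell by 2.68 (SE 0.227, adjusted p = 0.0068 in limma, 6.43-fold lower). Pax4, which favours beta over alpha cells, fell by 3.82, from -1.03 ± 0.30 (SD, n = 4) to -4.84 ± 0.85 (SD, n = 4), and was above background on 2 of 4 mutant arrays. Nkx6-1 (-3.66), Pdx1 (-3.08) and Nkx2-2 (-3.03), needed for beta cells, fell as well. Neurod1, a target of Neurog3, was measured above background on 2 of 4 mutant arrays and differed by -1.42 without passing (adjusted p = 0.132 in limma).

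Genes that pack and process the hormones fell as well. Of 20 measured, 11 fell, none rose and all 20 had a negative difference, with a median of -0.96. Chgb, a granin of secretory granules, fell by 1.97 (SE 0.206, adjusted p = 0.0101 in limma), from 4.44 ± 0.42 to 2.47 ± 0.13 (SD, n = 4 each). The convertases that cut prohormones, Pcsk1 (-1.67) and Pcsk2 (-1.24), fell. So did Kcnj11 (-1.94) and Abcc8 (-1.68), the subunits of the potassium channel that couples glucose to secretion, and the glucose transporter Slc2a2 (-1.88). The granin Chga had a difference of -0.85 (adjusted p = 0.135 in limma). Ghrelin is acylated by Mboat4, for which no probe was found under that name on the array.

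Peptide hormone genes outside the 9 did not pass. Of 14 measured, 0 passed in limma (7 at an unadjusted p under 0.05) and 11 had a negative difference, with a median of -0.32. With the authors' values a single gene passed. Gip (-0.97, adjusted p = 0.0945), secretin or Sct (-0.91, adjusted p = 0.104) and Cck (-0.83, adjusted p = 0.171), all hormones of the gut, were the lowest and were singled out after their values were seen. Of 15 hormone receptors, 2 fell. Cckar, the receptor for cholecystokinin, fell by 2.93, and Gcgr, the glucagon receptor, fell by 0.86 (adjusted p = 0.0422 in limma).

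Markers of other cell types in the dissection were measured beside the hormones. Of 21 mesenchyme genes 3 rose (median 0.72, Tlx1 1.04), of 14 endothelium genes 1 rose (median 0.43, Emcn 0.67), of 13 macrophage genes 4 rose (median 0.63, Adgre1 0.87) and of 11 erythroid genes 0 passed in limma (5 at an unadjusted p under 0.05, median 0.44). Of 11 acinar genes 9 fell (median -2.48, Clps -3.53). Of 9 stomach and intestine genes 1 fell, Vil1, by 0.96, and the summed level of the list was 1.14 to 1.94 in wild-type and 0.811 to 1.38 in mutant arrays. Of 16 neural crest, neuron and glia genes 3 fell (median -0.56), led by Sox10 (-1.54). Their part in the hormone differences was not tested.

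**Figure D4:**
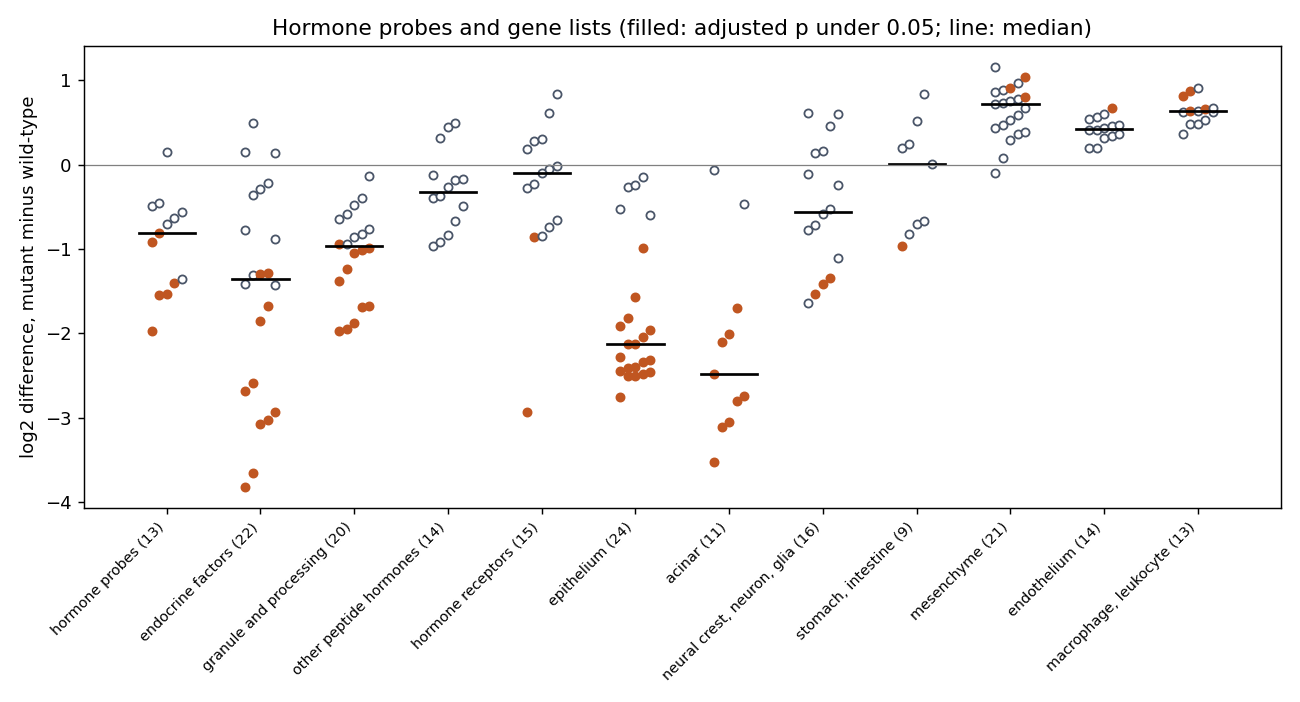
Log2 difference, mutant minus wild-type, of the 13 hormone probes and of the genes of each list (number measured in brackets), with filled points for an adjusted p under 0.05 and a line at the median. The hormone median of -0.81 lies between that of the granule and processing genes (-0.96) and that of other peptide hormones (-0.32), and the epithelial median is -2.13.

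Genes among the 3 whose levels ran most like each hormone over the 8 arrays are given as a description. By Pearson's r over 18947 genes, with no p, those near to Gcg included Bag2 (0.982) and Sesn2 (0.982), and those nearest to Ins1 were Camkk1 (0.985), Vnn1 (0.981) and Cibar2 (0.977). Nearest to Ins2 were Dedd2 (0.994), Camkk1 (0.990) and Gcgr (0.990), and near to Iapp were Upb1 (0.987) and Slc35g1 (0.982). Nearest to Ppy were Rbm35b (0.997), Cox7a1 (0.995) and Rnf128 (0.994), and nearest to Pyy were Tbx6 (0.997), Cmtm8 (0.995) and Pcbd1 (0.995). Ghrl ran close to Dctpp1 (0.960) and TC1614162 (0.958), Sst to Otulin (0.972), 2810409K11Rik (0.934) and Mphosph1 (0.934), and Gast to ENSMUST00000064562 (0.996), 5830407P18Rik (0.993) and ENSMUST00000070378 (0.990). All points share the arrays, the scaling and the genotype difference.

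The promoters of Gast and Ppy, whose probes fell, and of Gcg, which did not pass, are shown as the 250 bases before the start site from RefSeq (GRCm38.p6). Of the 9 genes, 8 had such a window, 12 windows in all. Capitals mark matches on either strand to CAGATG, an E-box of the kind bound by endocrine bHLH factors such as Neurod1, and to TATAAA, the TATA box.
Gast: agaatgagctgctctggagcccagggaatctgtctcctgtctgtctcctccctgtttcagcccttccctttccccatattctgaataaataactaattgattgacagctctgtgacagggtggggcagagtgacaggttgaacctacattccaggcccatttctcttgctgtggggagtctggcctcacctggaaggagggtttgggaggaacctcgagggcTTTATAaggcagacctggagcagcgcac
Ppy: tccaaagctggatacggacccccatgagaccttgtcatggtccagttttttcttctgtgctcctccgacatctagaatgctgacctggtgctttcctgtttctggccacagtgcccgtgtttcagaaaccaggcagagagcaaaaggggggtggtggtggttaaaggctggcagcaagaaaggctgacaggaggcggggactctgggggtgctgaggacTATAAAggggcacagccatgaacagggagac
Gcg: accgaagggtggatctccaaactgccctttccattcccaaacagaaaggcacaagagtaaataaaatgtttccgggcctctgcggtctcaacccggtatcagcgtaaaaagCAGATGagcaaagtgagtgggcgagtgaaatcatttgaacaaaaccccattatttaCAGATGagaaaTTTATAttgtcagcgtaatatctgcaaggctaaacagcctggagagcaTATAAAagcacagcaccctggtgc

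CAGATG stood in the windows of Gcg, Ins1 and Iapp and in 14.4% of all 32851 windows of this length. TATAAA stood in those of Gcg, Ppy and Gast and in 12.4% of all windows. AACAAT, the core letters bound by Sox factors, stood in that of Sst and in 9.42% of all, TGACGTCA, the cAMP response element, in that of Sst and in 1.55%, and TAATTA, a homeodomain core, in none of the 12 and in 4.84%. No match overlapped another in the windows shown, and a match is a description of these windows only.

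**Figure D5:**
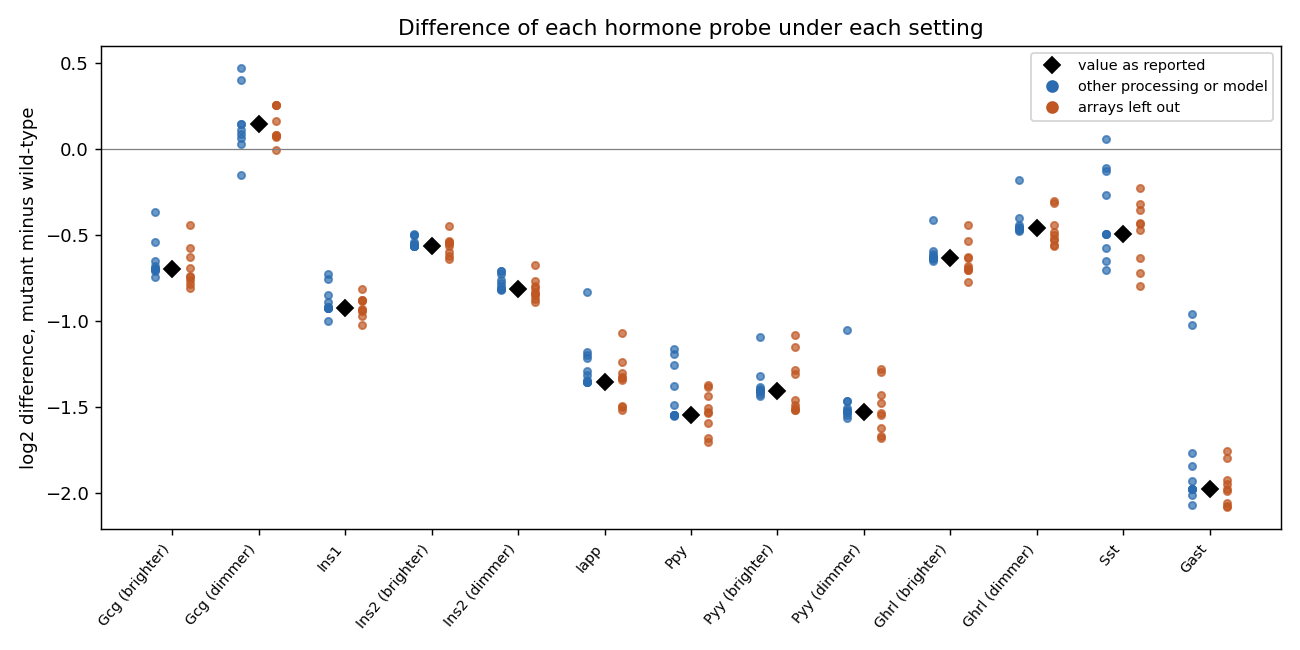
Log2 difference, mutant minus wild-type, of each hormone probe as reported (black), under another processing or model (blue) and with arrays left out (orange). For 11 of the 13 probes every point lies under 0, and Gast spans the widest range, -2.08 to -0.96.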

How the data were processed

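The deposited scanner files hold intensity values that the authors produced with Agilent Feature Extraction 9.5.3.1, per the file headers: the processed signal is background subtracted and detrended within each array and not normalized between arrays. The deposited mean and local background signals are intensity values as scanned, and the deposited spot flags hold marks other than measurements. The authors' deposited value table holds intensity on a linear scale with a median of 227 on every array. The submitters' processing notes name limma, without a version. Its rows were matched to spots by file order, with a rank correlation of at least 0.999 with the mean signal.

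Each file held 45018 spots, of which 1639 were controls. Outlier spots were left out, the processed signal was put on a log2 scale relative to its 75th percentile on that array, and repeat spots were averaged per probe. Probes well above background on at least 4 of 8 arrays were kept. Of all probes, 23374 were named through RefSeq accessions and the rest from the files. Genotypes were compared over all 27386 kept probes in limma 3.58.1 under R 4.3.3. The test was moderated and two-sided, and its p-values were adjusted by Benjamini-Hochberg. The fit was tried on simulated data with independent noise for each probe and array. That trial holds no spread shared between probes or arrays, so it does not bear on such spread here. The number of arrays limits the precision. Ratios within an array, added after the values were seen, were tested by two-sided exact permutation. Figures were drawn with matplotlib 3.10.9.

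The members and gene lists were chosen with earlier results of these data known. Named are all members, Sox9, a fixed set of endocrine and granule genes with the 4 largest called differences per related list, the largest called difference per cell type list, and the 3 genes nearest to each member. Some genes that this rule names are not reported here. Alternatives covered background, scaling, filter, slide, replicate number, weights, 1 probe per gene, the Y-linked level, the authors' table and arrays left out.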

Additional observations from a re-analysis of the deposited data

Results flagged for a closer look

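The brighter Gcg probe stood at 7.90 in wild-type replicate 1, while the other 3 wild-type arrays lay between 6.79 and 6.93. The brighter Pyy probe stood at 7.73 in the same array, and the other 3 lay between 6.63 and 6.82. Both were set apart because the gap to the nearest wild-type array passed Dixon's critical value for 4 samples (0.873 of the range for Gcg and 0.833 for Pyy). Of 26 groups of 4 arrays checked, these 2 met that mark, and chance alone marks about 1 in 20 groups.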

How the results depend on the processing

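Of the 13 hormone probes 6 passed, and 4 to 8 did with normexp, quantile scaling, the authors' table, slide as a block or as a random block, or array weights. A stricter filter tested 11 of them, of which 7 passed, and 1 probe per gene tested 9, of which 5 passed. These 5 were not the same genes as in the main fit. Iapp passed (adjusted p = 0.0468 in limma), and Ins2, read there by its brighter probe, did not (adjusted p = 0.0653 in limma). The count was 2 with no filter on dim probes, 0 with the Y-linked level as a covariate, and 2 to 5 on leaving out 1 array. Without mutant replicates 1 and 2 together it was 0 (8 at an unadjusted p under 0.05 in limma). Over all probes, 1027 passed, against 409 with no filter, 1675 with slide as a random block, 2181 with array weights, 3 with the Y-linked covariate, 294 to 972 on leaving out 1 array and 0 without mutant replicates 1 and 2 (2929 at an unadjusted p under 0.05 in limma). Relative to epithelial genes, 8 probes became 5 without those mutant arrays. With no filter more probes are tested, and with arrays left out fewer samples; otherwise the cause was not tested.

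With the replicate number as a block, 2 hormone probes (Gast and Ppy) and 326 probes in all passed. Same-numbered arrays correlated at -0.377, -0.255, 0.00482 and 0.119 in their deviations from the group means, and 0 numbers matched best with each other. No pairing by number was seen, but so few arrays cannot exclude one.

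The sign turned for the dimmer Gcg probe with the Y-linked covariate (-0.15) and without wild-type replicate 4 (-0.0051; -0.0051 to 0.26 with 1 array left out), and for Sst with array weights (0.058). Relative to epithelial genes it turned for the dimmer Pyy probe with normexp (-0.059) and in the authors' table (-0.036), and for Gast (0.50 and 0.48). Ratios to Gcg turned for Ins2 without wild-type replicate 1 (-0.0067 to 0.24 with 1 array left out), for Ghrl without wild-type replicate 4 (-0.0078) or mutant replicate 2 (-0.055 to 0.21), and for Sst without mutant replicate 4 (-0.061 to 0.52). Dim probes such as Sst, Gast and the dimmer Gcg probe are limited by signal over background.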
